A study of Mus musculus with 12 samples.

Results

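The lipid droplet coat and CIDE genes Plin1, Plin2, Plin3, Plin4, Plin5, Cidea, Cideb and Cidec were followed in single-nucleus RNA sequencing of mouse adipose tissue. They were chosen by symbol, and all 8 were present among the 32285 genes of the deposited matrices. A fat cell stores triglyceride in droplets bounded by a single phospholipid layer. Perilipins coat that surface and control which lipases reach the lipid, and CIDE proteins (cell death-inducing DFFA-like effectors) sit where droplets touch and pass lipid from one droplet to another. White fat cells usually hold a single large droplet, whereas brown fat cells hold many small ones, burn fatty acids through the uncoupling protein UCP1 and are known for high CIDEA.

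The study compared 4 depots, labelled mPRAT, lPRAT, iBAT and iWAT. By common usage mPRAT and lPRAT are the medial and lateral perirenal depots, iBAT the interscapular brown depot and iWAT the inguinal white depot; the labels do not spell them out. All mice were male C57BL/6J on normal chow with no transgene in the labels. mPRAT and iBAT were taken at 1, 2 and 6 months at 22 °C and at 6 months after 3 days at 4 °C. lPRAT was taken at 2 and 6 months at 22 °C, and iWAT at 6 months at 22 °C and after the same 3 days at 4 °C. The age field gives 4, 8 and 16 weeks for the libraries titled 1, 2 and 6 months, so the oldest age has conflicting labels and is called 6 months below as titled. Each of the 12 groups was 1 library. Differences between groups therefore had no replicate check and no test, and intervals (95%) cover counting error only. How many animals stand behind a library is not given.

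Of 119035 barcodes, 96649 nuclei were kept, and 65486 fell into 6 clusters called adipocyte-like because 4 to 7 of 7 fixed adipocyte markers were at least 2-fold higher there than in clusters of other classes. The members, Ucp1 and Cyp2e1 were not used for clustering. Adipocyte-like nuclei numbered 1957 to 15396 per library, with a median of 895.5 to 6622 UMIs (unique molecular identifiers, 1 per captured RNA molecule) per nucleus. Total UMIs per library ran from 5461133 to 87035783. In the cold mPRAT library 66.0% of barcodes exceeded the limit of 10% mitochondrial UMIs, against at most 22.1% in any other library. Any 2 libraries shared at most 76 barcodes. Levels are in CPM, the UMIs of a gene scaled to a total of 1000000 UMIs over the adipocyte-like nuclei of a library. They compare libraries for the same gene, not genes with each other. Fewer cells of a type in the class and less RNA per cell cannot be told apart in such sums.

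On GRCm38 every member placed here was on the minus strand. Plin1 spans chr7:79720218-79732903, Plin2 chr4:86648386-86670060, Plin3 chr17:56277476-56292873, Cideb chr14:55754050-55758458 and Cidec chr6:113424634-113435760. Plin4 (chr17:56100591-56109803) and Plin5 (chr17:56111601-56117596) are neighbours with 1797 bp between them. Plin4 overlaps Hdgfl2 and Cideb overlaps Nop9, both on the opposite strand. The stretches upstream of the RefSeq starts of 4 members are shown because these members differed in opposite directions between Ucp1-rich and Ucp1-poor adipocyte clusters, Plin2 and Plin5 one way and Plin4 and Cidec the other. They come from RefSeq on GRCm38.p6, run 5′ to 3′ on the gene's strand and end at the base before the first exon. Exonic bases among the 250 before the table's start were left out of the print, 1 for Plin2, 48 for Plin5, 21 for Plin4 and 0 for Cidec. The capitals mark AGGTCA, the sequence bound by many nuclear receptors, or its reverse complement.
Plin2, chr4:86670061-86670309: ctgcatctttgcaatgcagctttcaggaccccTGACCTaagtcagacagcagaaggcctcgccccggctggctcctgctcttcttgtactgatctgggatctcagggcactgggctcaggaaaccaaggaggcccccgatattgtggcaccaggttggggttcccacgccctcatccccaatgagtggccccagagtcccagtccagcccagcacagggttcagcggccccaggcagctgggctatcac
Plin5, chr17:56117597-56117798: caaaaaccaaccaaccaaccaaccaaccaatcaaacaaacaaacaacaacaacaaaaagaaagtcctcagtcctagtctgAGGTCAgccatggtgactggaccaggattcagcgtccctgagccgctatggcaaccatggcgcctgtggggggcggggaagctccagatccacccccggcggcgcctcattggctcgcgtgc
Plin4, chr17:56109804-56110032: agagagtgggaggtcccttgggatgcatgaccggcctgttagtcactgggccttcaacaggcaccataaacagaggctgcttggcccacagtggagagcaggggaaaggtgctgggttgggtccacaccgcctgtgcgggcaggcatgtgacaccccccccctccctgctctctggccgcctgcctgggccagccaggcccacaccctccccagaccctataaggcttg
Cidec, chr6:113435761-113436010: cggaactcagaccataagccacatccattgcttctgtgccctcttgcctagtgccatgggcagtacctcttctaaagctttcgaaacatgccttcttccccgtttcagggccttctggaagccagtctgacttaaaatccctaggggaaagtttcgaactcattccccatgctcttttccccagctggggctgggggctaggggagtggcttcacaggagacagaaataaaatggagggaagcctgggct
AGGTCA was searched on both strands in the 250 bases before each start, the bases left out of the print included. Counted from that start, it was found once in Plin2, beginning 218 bases before it, and once in Plin5, 170 bases before it. The Plin4 and Cidec stretches did not hold it, and neither did the windows of Plin1, Plin3 and Cideb, although Plin3 differed between the clusters in the same direction as Plin2 and Plin5. It was in 2 of the 9 entries that matched 7 of the 8 members, and in 14.0% of all 32851 promoters in the table. TCAAGGTCA, which contains AGGTCA, was in 0 of the 9 entries and 0.387% of all promoters. These letters are a description of the windows and were not tied to the levels by any measurement here.

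Plin1 encodes the main coat protein of large adipocyte droplets, which holds the lipase co-activator ABHD5 until the cell is stimulated. In mPRAT it stood at 720, 821, 1159 and 1036 CPM (1, 2 and 6 months, then cold), and in iBAT at 759, 850, 1080 and 1105 CPM. In lPRAT it stood at 875 and 1234 CPM (2 and 6 months), and in iWAT at 888 and 965 CPM (6 months, then cold). Plin1 varied least of the members, with 1.71-fold between the lowest and highest library, and its level was higher at 6 than at 1 or 2 months in each depot with more than 1 age. Its values in the 4 depots overlapped.

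Plin2 encodes a coat protein of small and growing droplets that many cell types make when they store lipid. It was at 249.5, 326, 435 and 796 CPM in mPRAT and at 226, 275.5, 558.5 and 1154 CPM in iBAT. It was at 73.3 and 115 CPM in lPRAT and at 143 and 172 CPM in iWAT. The 8 mPRAT and iBAT libraries all lay above the 4 lPRAT and iWAT libraries, and the cold iBAT library was the highest. The range was 15.7-fold.

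Plin5 encodes the coat protein that links droplets to mitochondria in tissues with high fatty acid oxidation. It was at 58.0, 47.3, 49.1 and 77.5 CPM in mPRAT and at 208, 135, 77.5 and 136 CPM in iBAT. In lPRAT it was at 5.82 and 8.15 CPM and in iWAT at 7.95 and 8.23 CPM. The lPRAT and iWAT libraries were all below the lowest mPRAT library, and the range was 35.7-fold. Within iBAT at 22 °C the level was lowest at 6 months.

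Plin4 encodes a coat protein with a long repeated helix that binds new droplets in adipocytes. It was at 446, 515, 934 and 618 CPM in mPRAT and at 505, 505.5, 252 and 246 CPM in iBAT. In lPRAT it was at 485.5 and 2375 CPM, and in iWAT at 1078 and 694 CPM. The highest library was lPRAT at 6 months and the lowest the cold iBAT library, a 9.66-fold range. The depots overlapped at 1 and 2 months.

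Plin3 encodes a widely expressed coat protein that also travels in the cytosol. It was at 42.4, 19.8, 29.4 and 29.4 CPM in mPRAT, and at 61.7, 40.9, 52.6 and 43.9 CPM in iBAT. In lPRAT it was at 18.6 and 12.9 CPM, and in iWAT at 10.8 and 9.80 CPM. The iBAT libraries were high and the iWAT libraries low, over a range of 6.30-fold. Its median over libraries was 29.4 CPM in adipocyte-like nuclei and 27.7 CPM in nuclei resembling adipose stem and progenitor cells (ASPC-like). Within libraries the ASPC-like level ran from 34.2% to 289% of the adipocyte-like one.

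Cidea encodes the CIDE protein linked to the many-droplet form of brown and beige fat cells. It was at 756, 734, 541 and 633 CPM in mPRAT and at 969.5, 910, 1194 and 995 CPM in iBAT. It was at 8.92 and 3.62 CPM in lPRAT and at 19.8 and 89.6 CPM in iWAT. The lPRAT and iWAT libraries lay below every mPRAT and iBAT library, and in class sums iBAT lay above mPRAT at each age and temperature. At 2 months this order turned with the processing: the log2 ratio of mPRAT over iBAT was -0.31, and 0.12 after the macrophage-like level was subtracted. The iBAT level subtracted came from 41 macrophage-like nuclei, under the minimum of 50 used for other class levels, so this turn is weakly based. Its range, 330.1-fold, was the widest of the 7 members other than Cideb.

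Cidec encodes the CIDE protein that enlarges droplets and supports the single large droplet of white fat cells. It was at 902, 1469, 1163 and 678 CPM in mPRAT and at 582, 652, 355 and 363.5 CPM in iBAT. It was at 2124 and 1797 CPM in lPRAT and at 2153 and 1082 CPM in iWAT. Cidec ran opposite to Cidea between iBAT and lPRAT, with no overlap of these 2 depots, and its range was 6.07-fold. The cold iWAT library lay within the mPRAT range.

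Cideb encodes the CIDE protein of liver, kidney and gut, where it acts on lipoprotein lipid. It was near the limit of detection. In mPRAT it had 4, 1, 11 and 23 UMIs, and in iBAT 11, 6, 67 and 203 UMIs. In lPRAT it had 0 and 2 UMIs and in iWAT 2 and 2 UMIs, and the 0 allows up to 1.16 CPM (3 counts of the total). The highest adipocyte-like level was 2.90 CPM, in cold iBAT. Kidney tubule-like nuclei, found in the mPRAT libraries of 1 and 2 months, had 22.7 and 16.5 CPM from 11 and 23 UMIs. Those libraries had the fewest adipocyte-like Cideb UMIs in mPRAT but also the fewest UMIs in total, so these counts do not order the levels. The part of kidney RNA in the adipocyte-like counts was not tested.

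**Figure D1:**
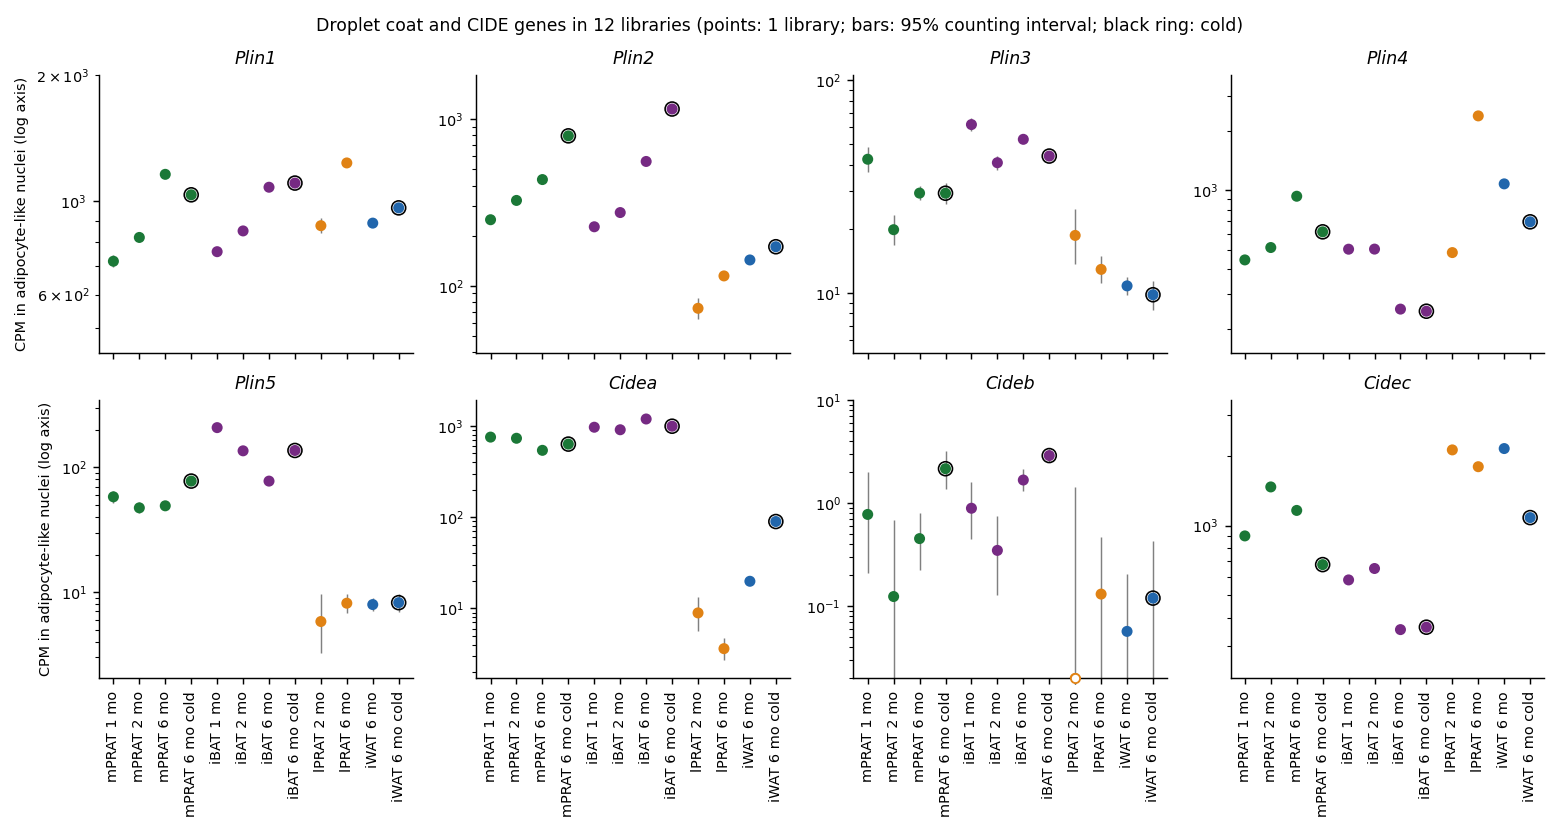
Level of each member (CPM in adipocyte-like nuclei, log axis) in the 12 libraries, 1 point per library with its 95% exact Poisson interval. Cidea and Plin5 split the mPRAT and iBAT libraries from the lPRAT and iWAT libraries, while Plin1 spans 720 to 1234 CPM in all, and the Cideb library with 0 UMIs is the open point at the lower edge.

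For the share of nuclei with at least 1 UMI, nuclei were first thinned at random to 1000 UMIs, because depth differed between libraries, and nuclei with fewer UMIs were left out here and in the contrasts made at this depth. This left out 236, 714, 9 and 86 adipocyte-like nuclei in mPRAT, 2938, 1911, 1941 and 64 in iBAT, 108 and 42 in iWAT, and 1218 and 47 in lPRAT, where 910 of 2128 remained at 2 months. Over the 12 libraries the median share of adipocyte-like nuclei was 58.0% for Plin1 (89.1% unthinned), 21.2% for Plin2 (45.4%), 36.3% for Plin4 (61.7%) and 51.4% for Cidec (77.2%). In macrophage-like nuclei, which should lack Plin1 and Cidec, the median thinned shares were 6.15% and 4.56%. Free RNA and doublets that were not removed were not told apart in such shares. Plin5 had a median of 5.95% (13.3% unthinned), with 0% in macrophage-like and 0.487% in ASPC-like nuclei. Plin3 had a median of 2.96% against 1.82% in macrophage-like nuclei, and Cideb 0.0288% against 0%. Plin2 was found in 17.5% of macrophage-like nuclei, a share not read as background, since macrophages are known to make Plin2. Cidea was found in 42.3% of adipocyte-like nuclei (59.6% unthinned), in 0.190% of macrophage-like and in 3.00% of ASPC-like nuclei. These 2 background shares are medians over libraries with at least 50 such nuclei. They include lPRAT and iWAT, where adipocyte-like nuclei had little Cidea themselves. Its summed level in macrophage-like nuclei ran from 0.558 to 191 CPM. That was 3.23% to 45.2% of the adipocyte-like level of the same library, with a median of 15.4%.

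Cidea and Cidec were then set against each other within each library, since a share of their summed UMIs does not depend on the scaling. Cidea made up 45.6%, 33.3%, 31.8% and 48.3% of Cidea plus Cidec UMIs in mPRAT at 1, 2 and 6 months and in cold. In iBAT the shares were 62.5%, 58.3%, 77.1% and 73.2%. In lPRAT they were 0.418% and 0.201%, and in iWAT 0.912% and, in cold, 7.65%. The depots fell in the order iBAT, mPRAT, iWAT, lPRAT without overlap. The exact interval of the cold mPRAT share, 47.5% to 49.1%, lay above that at 22 °C, 31.3% to 32.2%, and the cold iWAT interval, 7.28% to 8.03%, lay above 0.85% to 0.98%. Within the Ucp1-rich mPRAT clusters described below the share was 75.4% at 22 °C and 77.2% in cold, and within the Ucp1-poor clusters 8.09% and 9.0%, while Ucp1-poor nuclei were 55.3% and 36.5% of the class. When nuclei were chosen by adipocyte markers one by one, the iWAT shares were 1.15% and, in cold, 14.1%. In iBAT the cold share was the lower of the pair, with 73.0% to 73.5% against 76.8% to 77.4%. In ASPC-like nuclei the share moved with these values: it was 39.6% in mPRAT and 64.4% in cold mPRAT, and 1.7% in iWAT and 27.7% in cold iWAT. Their part in the adipocyte-like shares was not tested.

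**Figure D2:**
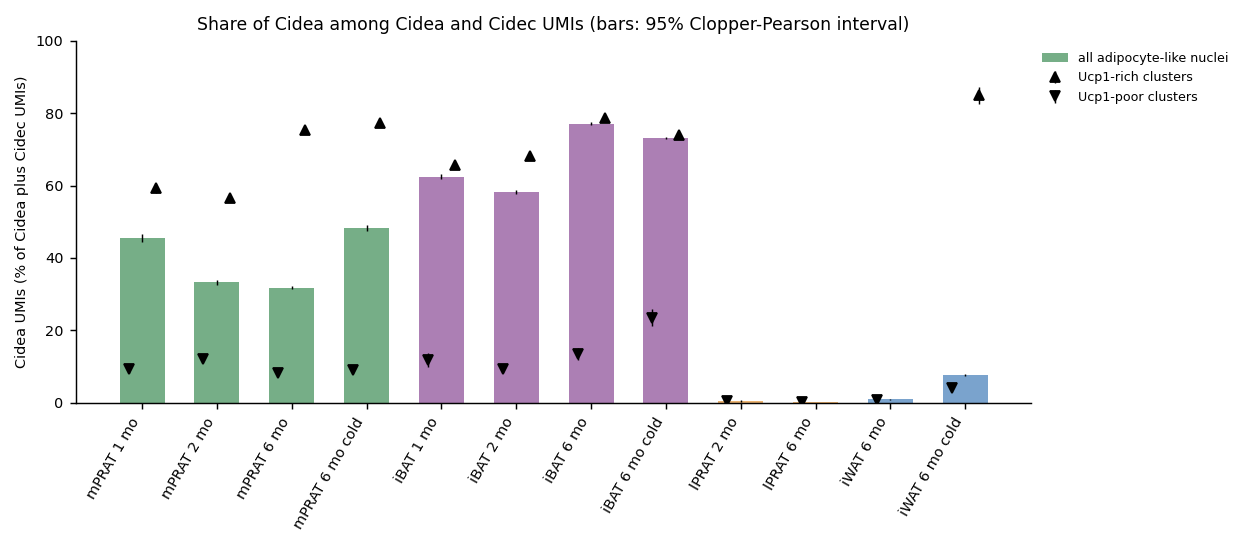
Cidea as a percent of Cidea plus Cidec UMIs in adipocyte-like nuclei of each library (columns), with 95% exact binomial intervals; triangles give the same share in the Ucp1-rich and Ucp1-poor clusters described below. The iBAT libraries sit between 58.3% and 77.1%, mPRAT between 31.8% and 48.3%, and lPRAT and iWAT at or below 7.65%.

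At the level of single nuclei thinned to 1000 UMIs, 13.3% of mPRAT adipocyte-like nuclei at 6 months held both Cidea and Cidec UMIs, 20.5% Cidea only and 41.2% Cidec only. Cidec was found in 39.4% of the 1137 nuclei with Cidea and in 62.3% of the 2224 nuclei without it. In iBAT at 6 months the same 2 values were 28.2% and 27.9%. In cold they were 26.5% and 46.9% in mPRAT, 29.9% and 29.7% in iBAT, and 36.3% and 60.6% in iWAT. At the younger ages they were 44.1% and 51.6% (1 month) and 54.5% and 68.2% (2 months) in mPRAT, and 38.9% and 40.4% (1 month) and 35.8% and 41.8% (2 months) in iBAT. These are shares of nuclei of 1 library each, and the difference between depots was not tested.

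Cold was compared with 22 °C at 6 months in 3 depots, the depot-specific cold response being a stated purpose of the study. Among all genes with at least 20 counts in the pair, 10.7% were at least 2-fold higher and 13.1% at least 2-fold lower in cold mPRAT. Of the 8 members 1 was at least 2-fold higher there and 0 lower. That member was Cideb, with 23 against 11 UMIs and a log2 ratio of 2.25 (interval 1.16 to 3.43). Plin2 was 0.87 higher on the log2 scale (0.83 to 0.91) and Plin5 0.66 higher (0.53 to 0.79). Cidec differed by -0.78 (-0.82 to -0.74) and Plin4 by -0.60. Without the mitochondrial limit the cold mPRAT values were 0.87 for Plin2, 0.66 for Plin5 and -0.83 for Cidec. Cidea differed by 0.23, and by -0.17 when nuclei were chosen by adipocyte markers one by one rather than by cluster.

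In cold iBAT, 10.3% of all genes were at least 2-fold higher and 18.1% at least 2-fold lower, and of the 8 members 1 was higher and 0 lower. That member was Plin2, from 558.5 to 1154 CPM, with a log2 ratio of 1.05 (1.03 to 1.07). Plin5 followed at 0.82 (0.76 to 0.87). Within clusters 0, 2 and 18, given further down, Plin2 was higher in cold by less than 2-fold. Plin1, Plin4 and Cidec were within 0.04 of 0 on the log2 scale, and Cidea was at -0.26. Scaling by TMM, which centres the bulk of genes, moved every iBAT cold ratio by 0.28, so that Plin2 stood at 1.33, Plin5 at 1.10 and Cidea at 0.02. The direction of Cidea in the class sums of cold iBAT therefore depended on the scaling. In CPM within single clusters, given further down, Cidea was lower in cold in clusters 2 and 18 and higher in cluster 0.

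In cold iWAT, 4.28% of all genes were at least 2-fold higher and 14.2% at least 2-fold lower, and of the 7 members measured 1 was higher and 0 lower. That member was Cidea, from 19.8 to 89.6 CPM, with a log2 ratio of 2.18 (2.05 to 2.31). Cidec differed by -0.99 (-1.02 to -0.97), just inside the 2-fold limit, and by -1.08 under the marker choice of nuclei. Plin4 differed by -0.64 and Plin2 by 0.26, whereas Plin5 and Plin1 stood at 0.05 and 0.12. Ucp1 itself was at 0.80 and 30.5 CPM. In class sums Plin2 was higher in cold in all 3 depots, in iWAT by 0.26 and over its Ucp1-poor clusters, described below, by 0.07. Within single poor clusters of iWAT it was lower in cold. It went from 211 to 196 CPM in cluster 0 and from 116 to 94.3 CPM in cluster 3. Cidec was lower in mPRAT and iWAT.

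**Figure D3:**
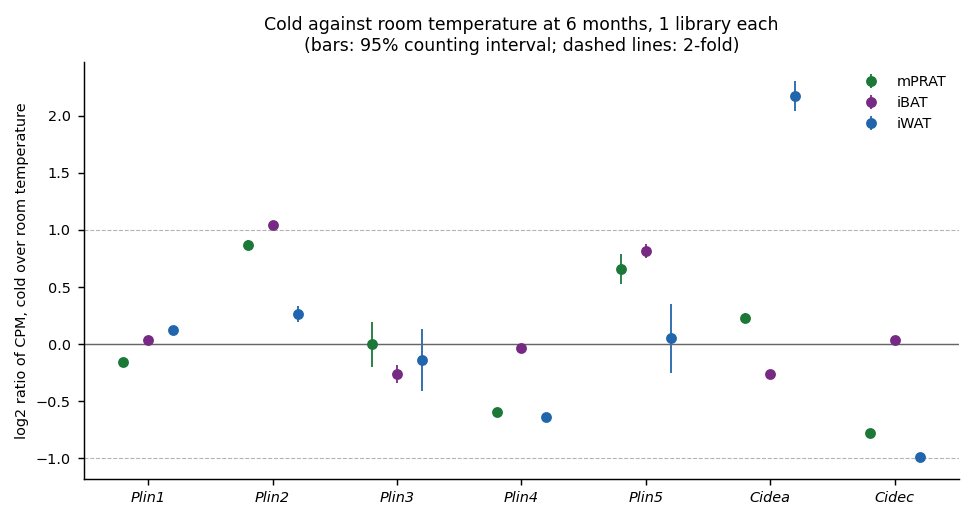
Log2 ratio of cold over 22 °C for the 7 members other than Cideb in mPRAT, iBAT and iWAT adipocyte-like nuclei, with 95% exact counting intervals. In these class sums Plin2 lies above 0 in all 3 depots (0.87, 1.05 and 0.26). The iWAT value was 0.07 over its Ucp1-poor clusters, and Plin2 was lower in cold within cluster 0 and within cluster 3. Cidea stands out in iWAT at 2.18, and it went from 19.5 to 46.6 CPM over the iWAT Ucp1-poor clusters.

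The lipolysis list (10 genes) and the list of other droplet proteins (21 genes, 17 of them measured) were counted in the same pairs. Of all genes, 10.7% were at least 2-fold higher and 13.1% lower in cold mPRAT, 10.3% and 18.1% in cold iBAT, and 4.28% and 14.2% in cold iWAT. In cold mPRAT 1 lipolysis gene was at least 2-fold higher and 0 lower, with a list median of -0.01 against -0.04 for all genes. Its named extremes were Abhd5 (-0.45), Aqp7 (-0.37), G0s2 (0.40) and Ces1d (0.55). Among other droplet proteins 2 were higher, namely Acsl3 (1.38), an acyl-CoA synthetase that moves onto new droplets, and Clstn3 (1.02), whose adipocyte isoform favours small droplets. The counts cannot tell the Clstn3 isoforms apart. In cold iBAT 0 lipolysis genes were higher and 1 was lower, Ces1f (-2.0), and among droplet proteins 1 was higher, Acsl3 (1.52), and 3 lower, among them Hsd17b11 (-1.47) and Mettl7a1 (-1.33). The 3 of 17 lower were near the share of all genes. In cold iWAT 2 lipolysis genes were higher, Ces1d (2.05) and Abhd5 (1.28), the co-activator that Plin1 holds, and 1 was lower, Hilpda (-2.22), an inhibitor of the lipase ATGL. There Clstn3 (2.03) and Acsl3 (1.79) were the 2 droplet proteins past 2-fold.

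Age was compared within depots at 22 °C. These pairs share the 6-month libraries with the cold pairs, and with each other. In lPRAT from 2 to 6 months, 15.2% of all genes were at least 2-fold higher and 12.1% lower, and of the 7 members measured 1 was higher and 1 lower. Plin4 went from 485.5 to 2375 CPM, a log2 ratio of 2.29 (2.21 to 2.37). Cidea was the member below, at -1.30, on 8.92 and 3.62 CPM, and at -0.68 after the macrophage-like level was subtracted. In the same pair 4 of 10 lipolysis genes were at least 2-fold higher and 0 lower, with Pnpla2 and Aqp7 both at 1.54.

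In iBAT from 1 to 6 months, 9.1% of all genes were at least 2-fold higher and 11.7% lower, and of the 8 members 1 was higher and 2 lower. Plin2 was higher by 1.30 on the log2 scale (1.25 to 1.36). Plin5 was at -1.42 (-1.50 to -1.35) and Plin4 at -1.0 (-1.05 to -0.96), a value on the 2-fold line that moved to -0.78 when the macrophage-like level was subtracted. These ratios compare different clusters: 77.2% of iBAT adipocyte-like nuclei lay in cluster 1 and 5.42% in cluster 7 at 1 month, and 1.94% and 58.1% at 6 months. Within clusters 1, 2 and 7 Plin2 was at 228, 247 and 219 CPM at 1 month and 499, 728 and 463 CPM at 6 months. Plin5 was at 217, 215 and 258 CPM, then 93.1, 83.5 and 75.7 CPM. Plin4 was at 455, 463 and 504 CPM, then 270, 243 and 214 CPM. Within cluster 0 the pairs were 181 and 301 CPM for Plin2, 47.4 and 38.4 CPM for Plin5, and 1151 and 958 CPM for Plin4. From 2 to 6 months, where 10.4% of genes were higher and 7.49% lower, 2 of 8 members were higher, Plin2 at 1.02 and Cideb at 2.27 on 67 and 6 UMIs. Plin4 was the 1 lower member, at -1.01. Plin4 was inside 2-fold with doublets kept, by the mean of nuclei (-0.87) and under the marker choice of nuclei (-0.95), and Plin2 under TMM scaling (0.97). Within the Ucp1-rich clusters described below Plin4 was at -0.81, and within the poor ones at -0.07. Between 1 and 2 months 0 of 7 members passed 2-fold in either direction, against 2.75% of genes higher and 6.69% lower.

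In mPRAT from 1 to 6 months, 8.39% of all genes were at least 2-fold higher and 12.7% lower, and of the 7 members measured 1 was higher and 0 lower. Plin4 was that member, at 1.07 (1.00 to 1.13) and at 0.88 under the marker choice of nuclei, and Plin2 stood at 0.80 and Plin1 at 0.69. Plin4 was inside 2-fold within the clusters described below, from 303 to 352 CPM in Ucp1-rich and from 826 to 1273 CPM in Ucp1-poor ones. Plin4 was thus higher in the oldest mPRAT and lPRAT libraries than in the youngest, and lower in the oldest iBAT library. From 1 to 2 months 1 of 7 members was past 2-fold, Plin3 at -1.10, against 2.28% of genes higher and 8.46% lower. The Plin3 value was -0.91 under TMM scaling and -0.76 under the marker choice of nuclei. From 2 to 6 months 0 of 7 members passed 2-fold, against 11% of genes higher and 6.05% lower, and Plin4 was nearest at 0.86.

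Depots were compared at the same age and temperature, and these pairs share libraries. iBAT was first set against iWAT at 6 months, where 5 of 8 members were at least 2-fold higher and 2 lower, against 18.7% and 18.2% of all genes. Cidea stood at 5.91, Cideb at 4.87 (67 and 2 UMIs), Plin5 at 3.28, Plin3 at 2.29 and Plin2 at 1.97, whereas Cidec was at -2.60 and Plin4 at -2.10. Within Ucp1-poor clusters, given further down, 2 members passed in this pair, against 14.8% and 5.9%, and Plin4 was at 0.05. In cold the same counts, 5 and 2 of 8, stood against 26.7% and 18.2%, and Cidea was at 3.47. Within the Ucp1-rich clusters of the cold pair, given further down, 0 members passed, against 12.6% and 26.1%, and Cidea was at -0.28. Within its poor clusters 4 passed, against 17.2% and 7.64%. Of the droplet protein list, Clstn3 (3.99) was the highest in iBAT over iWAT at 6 months.

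mPRAT was set against lPRAT, the other perirenal depot, at 6 months: 4 of 7 members were at least 2-fold higher and 1 lower, against 12% and 11% of all genes. Cidea was at 7.23, Plin5 at 2.59, Plin2 at 1.92 and Plin3 at 1.19, and Plin4 was at -1.35. At 2 months 3 of 7 members were higher and 0 lower, against 13.5% and 16.7%, with Cidea at 6.36, Plin5 at 3.02 and Plin2 at 2.15. Against iWAT at 6 months, mPRAT had 4 of 7 members higher and 0 lower, against 13.8% and 9.17%, and in cold 5 of 8 and 0, against 24.1% and 10.3%.

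mPRAT against iBAT at 6 months had 2 of 8 members higher, Plin4 at 1.89 and Cidec at 1.71, and 2 lower, Cidea at -1.14 and Cideb at -1.89, against 13.2% and 8.48% of genes. Cidea was inside 2-fold by the mean of nuclei (-0.91), after subtraction of the macrophage-like level (-0.94) and under the marker choice of nuclei (-0.89). Within Ucp1-rich and within Ucp1-poor clusters, given further down, 0 members passed in this pair. At 1 month 0 of 7 members were higher and 1 lower, Plin5 at -1.84, against 11.8% and 5.46%. At 2 months Cidec was the 1 of 7 higher at 1.17, and Plin5 (-1.52) and Plin3 (-1.05) the 2 lower, against 9.06% and 7.23%. Cidec was at 0.77 under the marker choice of nuclei and Plin3 at -0.87 by the mean of nuclei. In cold 1 of 8 was higher, Plin4 at 1.33, and 0 lower, against 13.7% and 7.03%; under TMM scaling Plin4 was at 0.95 and under the marker choice of nuclei at 0.96. lPRAT against iWAT at 6 months had 1 of 7 members higher, Plin4 at 1.14 and at 0.99 under TMM scaling, and 1 lower, Cidea at -2.45, against 11.1% and 8.42%.

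Ucp1 was unevenly spread over the adipocyte-like clusters. Clusters with at least 100 CPM of Ucp1 over all libraries together are called Ucp1-rich and the others Ucp1-poor. This division was made after the values were seen. It need not hold in each library: the 134 Ucp1-poor nuclei of cold iBAT held 209 CPM of Ucp1, and the Ucp1-rich nuclei of mPRAT at 1 month 159 CPM. Ucp1-poor clusters held 22.0%, 37.2%, 55.3% and 36.5% of mPRAT adipocyte-like nuclei, 1.38% to 7.94% in iBAT, 99.4% and 99.7% in lPRAT, and 99.8% and 93.8% in iWAT. In the 9 libraries with at least 50 Ucp1-rich nuclei, Cidea ran from 958 to 1227 CPM in the rich clusters. It ran from 3.62 to 298 CPM in the poor clusters of all 12 libraries. ASPC-like nuclei held 24.9 to 57.9 CPM in mPRAT and 93.6 to 193 CPM in iBAT, and the part of RNA from other cells in the poor clusters was not tested. Cidec ran from 215 to 857 CPM in rich clusters and from 905 to 2174 CPM in poor ones. Plin4 ran from 126 to 459 CPM in rich and from 484 to 2375 CPM in poor clusters.

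Within each of the 9 libraries the rich over poor log2 ratio was above 0 for Cidea (1.85 to 4.71), Plin5 (1.36 to 4.27), Plin3 (0.65 to 1.84) and Plin2 (0.14 to 2.28). It was below 0 in all 9 for Plin4 (-2.50 to -1.19), Cidec (-2.38 to -1.16) and Plin1 (-0.43 to -0.09). No test was made, because the clusters rest on the expression of the same nuclei. In cold iWAT the 167 Ucp1-rich nuclei, 6.18% of the class, had 1219 CPM of Cidea, 215 of Cidec, 731 of Plin2, 95 of Plin5 and 126 of Plin4. The Cidea share of Cidea plus Cidec UMIs was 85.0% in them and 4.01% in the poor clusters of that library.

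**Figure D4:**
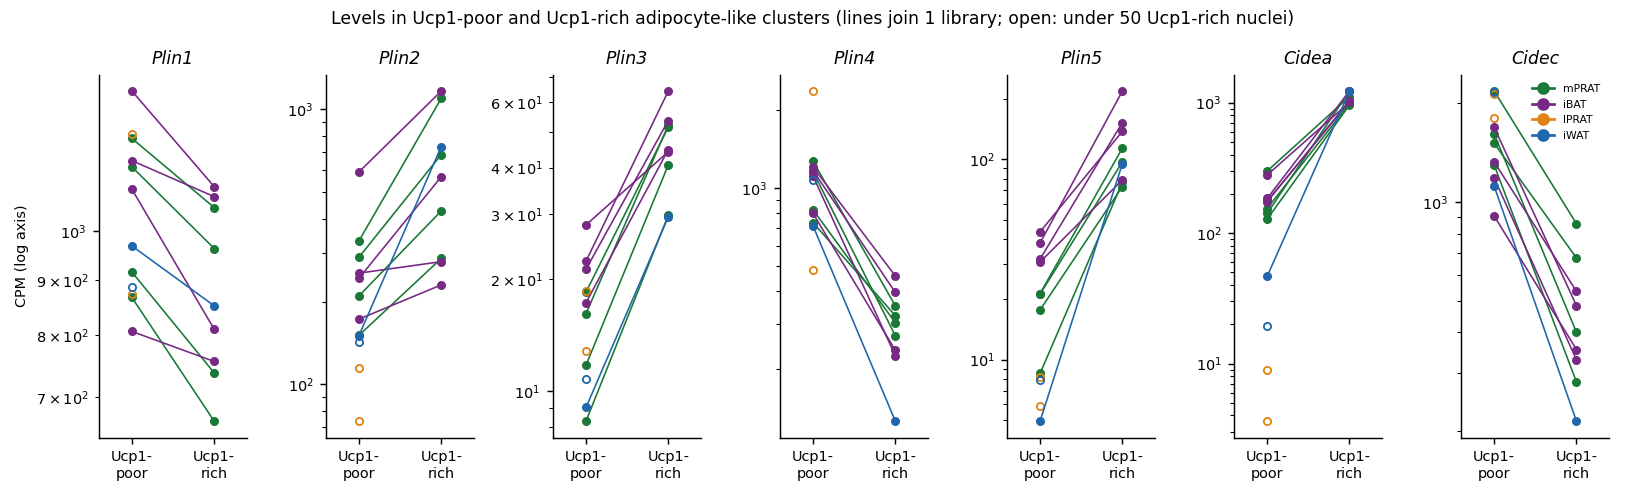
Level of the 7 members other than Cideb (CPM, log axis) in Ucp1-poor and Ucp1-rich adipocyte-like clusters; a line joins the 2 values of a library, and open points are libraries with under 50 Ucp1-rich nuclei. Cidea runs from 958 to 1227 CPM in the rich clusters and from 3.62 to 298 CPM in the poor ones, and Cidec runs the opposite way.

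The cold and age differences were also read within these clusters. In the mPRAT Ucp1-rich clusters the cold ratio of Plin2 was 0.68 and that of Plin5 0.23, and in the poor clusters they were 0.20 and 0.01. Cidec was at -0.50 in rich and -0.31 in poor clusters, against -0.78 over all. Cidea was at -0.36 in rich (interval -0.40 to -0.31) and -0.15 in poor clusters, against 0.23 over all, so its sign differed from that of the whole class. Cluster 18 held 60.7% of mPRAT adipocyte-like nuclei in cold and 3.23% at 22 °C, so the rich ratio compares different clusters. Within cluster 18 (22 °C, then cold) Cidec was at 292 and 280 CPM and Cidea at 1026 and 958 CPM. Plin2 was at 847 and 1094 CPM and Plin5 at 95.7 and 113 CPM there. Within cluster 0 Cidec was at 1565 and 1272 CPM and Cidea at 183 and 132 CPM. Plin2 was at 331 and 337 CPM and Plin5 at 25.1 and 22.1 CPM in that cluster. In the iBAT rich clusters, which hold nearly all its nuclei, Plin2 was at 1.03 and Plin5 at 0.80. There too the clusters differed: cluster 18 held 97.9% of the nuclei in cold and 0.611% at 22 °C, where 58.1% lay in cluster 7 and 37.3% in cluster 2. Within iBAT cluster 18 (22 °C, then cold) Plin2 was at 676 and 1162 CPM, Plin5 at 72.8 and 138 CPM and Cidea at 1535 and 1007 CPM. Cluster 2 had 728 and 1188, 83.5 and 152, and 1657 and 945 CPM in that order. Cluster 0, a poor one, had 301 and 597, 38.4 and 43.9, and 256 and 281 CPM. Cluster 18 had 94 nuclei at 22 °C, and cluster 2 had 60 in cold. In the iWAT poor clusters Cidea was at 1.26, Cidec at -0.95 and Plin4 at -0.59. Cluster 0 held 39.1% of iWAT adipocyte-like nuclei at 22 °C and 60.3% in cold, and cluster 3 held 60.7% and 33.5%, so this ratio too compares different mixes. Cidea went from 44.9 to 77.5 CPM within cluster 0 and from 9.40 to 8.50 CPM within cluster 3. Over the iWAT poor clusters Plin5 was at -0.69 (-1.06 to -0.32) against 0.05 for the whole class, and Plin2 at 0.07 against 0.26. Plin2 was lower in cold within cluster 0 and within cluster 3. The lPRAT poor clusters gave 2.30 for Plin4 between 2 and 6 months, with 92.1% of adipocyte-like nuclei in cluster 0 at 2 months and 88.1% in cluster 3 at 6 months. Plin4 went from 494 to 2734 CPM within cluster 0 and from 441 to 2360 CPM within cluster 3. The mPRAT age ratio of Plin4 from 1 to 6 months was 0.22 in rich and 0.63 in poor clusters, below the 1.07 of the whole class, while Plin2 was 1.25 and 0.94. The rich ratio compares different clusters, since cluster 1 held 71.8% of mPRAT adipocyte-like nuclei at 1 month and 2.46% at 6 months, when cluster 2 held 23.5% and cluster 7 15.5%. Within single rich clusters Plin4 went from 308 to 453 CPM (cluster 1), 248 to 378 CPM (cluster 2) and 195 to 326 CPM (cluster 7). Counted past 2-fold from 1 to 2 months in mPRAT were 2 members in poor clusters, Plin3 at -1.15 and Plin5 at 1.05 on 57 and 78 UMIs over both libraries, against 3.14% of genes higher and 6.43% lower. In the rich clusters 0 members passed, against 2.76% and 8.73%. From 2 to 6 months 1 member passed in the poor clusters, Cidea at -1.08, against 11.1% and 4.96%, and 1 in the rich clusters, Cidec at -1.10, against 8.94% and 5.57%. In poor clusters 0 members passed in mPRAT cold (against 7.72% and 9.57%), in iBAT from 2 to 6 months (8.48% and 4.54%) and in iBAT from 1 to 6 months (8.68% and 5.38%). The share of Ucp1-poor nuclei moved with age and cold in mPRAT, and its part in the ratios of the whole class was not tested beyond these values.

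The depot pairs were read within the clusters as well, after the whole-class values were seen. Between mPRAT and iBAT at 6 months, 0 members were past 2-fold in the Ucp1-rich clusters, against 6.47% of genes higher and 5.33% lower, and 0 in the poor clusters, against 5.63% and 6.1%. In the rich clusters Cidea stood at 1226.5 CPM in mPRAT and 1224.4 CPM in iBAT, a log2 ratio of 0.0025 (interval -0.03 to 0.03) where the whole class gave -1.14. Cidec was at 0.28 (0.23 to 0.33) and Plin4 at 0.64 (0.58 to 0.70) there, against 1.71 and 1.89 for the whole class. The rich nuclei were spread differently, with 23.5% of the mPRAT class in cluster 2 and 15.5% in cluster 7, against 37.3% and 58.1% in iBAT. Within single clusters Cidea was lower in mPRAT in 3 of the 4 rich ones, at 1494 against 1657 CPM in cluster 2, 883 against 940 CPM in cluster 7 and 1026 against 1535 CPM in cluster 18, and higher in cluster 1, at 1165 against 979 CPM. In cold 0 members passed in the rich clusters, against 8.9% and 5.88%. In the poor clusters 3 were lower, Cidea at -1.12, Plin3 at -1.25 and Plin5 at -1.02, against 8.1% of genes higher and 4.19% lower. The iBAT side of this pair is the 134 nuclei that held 209 CPM of Ucp1. Plin5 was below 0 between mPRAT and iBAT at 1 month, with -1.51 in rich clusters, against 10.4% and 5.38% of genes, and -2.16 in poor clusters, against 6.23% and 4.42%. At 2 months it was at -1.06 in rich clusters, against 8.01% and 6.86%, and at -0.84 in poor ones. In the poor clusters at 2 months Plin3 was the 1 member past 2-fold, at -1.06, against 4.73% and 4.66%.

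Between mPRAT and lPRAT the poor clusters still differed in Cidea, with 5.29 (4.90 to 5.70) at 6 months, and Plin2 was at 1.34 and Plin5 at 1.38. These were the 3 members past 2-fold there, against 7.34% of genes higher and 9.23% lower. The poor nuclei of mPRAT lay mostly in cluster 0 (47.0% of the class, 8.31% in cluster 3) and those of lPRAT in cluster 3 (88.1%, 11.5% in cluster 0). Plin5 was at 25.1 CPM in mPRAT and 18.4 CPM in lPRAT within cluster 0, and at 10.1 and 7.74 CPM within cluster 3, differences of less than 2-fold. Plin2 was at 331 and 132.5 CPM within cluster 0 and at 172 and 114 CPM within cluster 3, and Cidea at 183 and 3.35 CPM and at 23.9 and 3.63 CPM. Cidea ran at 141.5 CPM in the mPRAT poor clusters and 3.62 CPM in those of lPRAT, and the ASPC-like levels given above stand beside the first value. Between iBAT and iWAT at 6 months, Cidea (3.24) and Plin5 (1.95) were the 2 members past 2-fold in the poor clusters, against 14.8% and 5.9%, and Plin4 stood at 0.05 where the whole class gave -2.10. In cold the poor clusters had 3 members past 2-fold in mPRAT over iWAT, against 17% and 6.52%, and 4 in iBAT over iWAT, against 17.2% and 7.64%. The iBAT side is again the 134 nuclei that held 209 CPM of Ucp1. The rich clusters had 1 in mPRAT over iWAT, Plin4 at 1.10, against 18.6% and 4.24%. In cold, where iWAT had 167 Ucp1-rich nuclei, 0 members were past 2-fold between the rich clusters of iBAT and iWAT, against 12.6% and 26.1%. Cidea was at -0.28 and Cidec at 0.73 there, the opposite sign to the whole class.

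Contrasts made inside each library were repeated over libraries, which differ in depot, age and temperature, with 1 library per condition. The first compared nuclei with and without a Ucp1 UMI, after thinning to 1000 UMIs, in each of the 4 mPRAT and 4 iBAT libraries. Counts were summed per library and gate and tested with edgeR's quasi-likelihood test with the library as a block and Benjamini-Hochberg adjustment over 10296 genes. Of these, 2.21% were called higher and 4.42% lower in nuclei with Ucp1, and of the 7 members tested 2 were called higher and 2 lower. Plin2 (0.49, adjusted p = 0.0282) and Cidea (0.52, adjusted p = 0.0391) were higher. Cidec (-0.60, adjusted p = 0.0363) and Plin4 (-0.51, adjusted p = 0.0301) were lower. Plin5 had a ratio of 0.34 (adjusted p = 0.133), Plin1 of -0.01 (adjusted p = 0.972) and Plin3 of 0.06 (adjusted p = 0.961) in edgeR, and Cideb was too low to test. When 1 library was left out, the ratios ran from 0.41 to 0.57 for Plin2, 0.41 to 0.62 for Cidea, -0.70 to -0.46 for Cidec and -0.60 to -0.38 for Plin4, and all kept their sign. The Plin2 call was lost without any one of the 4 mPRAT libraries (adjusted p up to 0.106 in edgeR). The Cidea call was lost without any one of them or iBAT at 6 months (up to 0.129), and the Cidec call without any one of them or iBAT at 2 months (up to 0.128). The Plin4 call was lost without mPRAT at 1, 2 or 6 months at 22 °C or iBAT at 2 months (up to 0.108). Plin5 passed at 2000 UMIs per nucleus (0.51, adjusted p = 0.0366), without thinning (0.69, adjusted p = 0.0359) and with no filter on low counts (0.32, adjusted p = 0.0209) in edgeR.

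The depots differed in this contrast. The 4 libraries of a depot differ in age and temperature, so the SD and the test include these differences. In mPRAT the Plin2 ratio was 0.90 ± 0.10 (SD of log2 ratios, n = 4 libraries) and in iBAT 0.07 ± 0.16. Cidea was at 0.94 ± 0.35 and 0.08 ± 0.26, and Plin5 at 0.77 ± 0.48 and 0.06 ± 0.06. Cidec was at -1.14 ± 0.50 in mPRAT and -0.14 ± 0.17 in iBAT, and Plin4 at -0.96 ± 0.34 and -0.15 ± 0.14. For each of these 5 genes the 4 mPRAT libraries lay on one side of the 4 iBAT libraries without overlap. The test of the difference in edgeR, added after these values were seen, called 5 of 7 members: 3 with a higher ratio in mPRAT and 2 with a lower one, against 4.13% and 2.35% of all genes. The differences were 0.84 for Plin2 (adjusted p = 0.000209), 0.86 for Cidea (adjusted p = 0.00165) and 0.81 for Plin5 (adjusted p = 0.00461) by edgeR. They were -1.04 for Cidec (adjusted p = 0.00054) and -0.88 for Plin4 (adjusted p = 0.000534), while Plin3 (0.57, adjusted p = 0.101) and Plin1 (-0.10, adjusted p = 0.706) did not pass.

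Fitted alone with edgeR, the mPRAT libraries called 3 of 7 members higher, Plin2, Cidea and Plin5, and 2 lower, Cidec and Plin4, against 8.36% and 8.37% of genes. The iBAT libraries alone called 0 of 7 in either direction, against 0.409% and 1.65%, with adjusted p from 0.413 to 0.821. In mPRAT 199 to 905 nuclei carried a Ucp1 UMI in each library, and in iBAT 1449 to 7154. In iBAT nuclei without a Ucp1 UMI at this depth still lay mostly in Ucp1-rich clusters. So did those of mPRAT at 1 month, where 2133 nuclei had no Ucp1 UMI and the Ucp1-poor clusters held 564 nuclei in all. At 2 and 6 months and in cold, mPRAT had 2555, 2858 and 1178 nuclei without one, against 1410, 1864 and 791 Ucp1-poor nuclei. The part of this in the depot difference was not tested. In cold iWAT, a single library with 79 nuclei with a Ucp1 UMI and no test, Cidea was at 3.45, Plin5 at 2.71 and Plin2 at 2.03. Cidec was at -1.52 and Plin4 at -2.02 there.

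**Figure D5:**
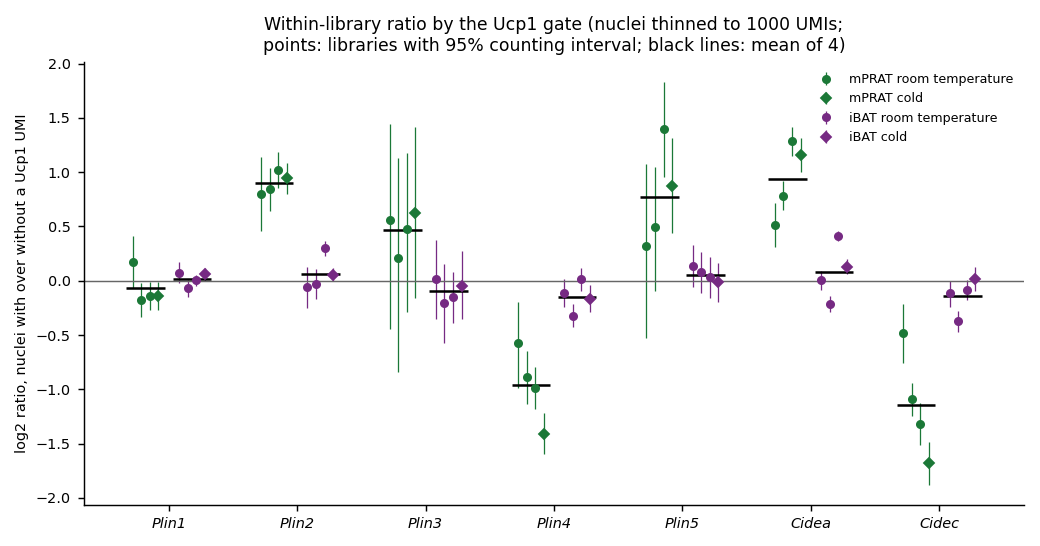
Log2 ratio of nuclei with over nuclei without a Ucp1 UMI (thinned to 1000 UMIs) for the 7 members other than Cideb, 1 point per mPRAT or iBAT library. The mPRAT ratios of Plin2 lie between 0.80 and 1.02 and those of Cidec between -1.68 and -0.48, below the iBAT ratios, of which the lowest, -0.38 at 2 months (interval -0.47 to -0.28), lies inside the interval of the mPRAT value at 1 month (-0.76 to -0.22).

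From the pathway lists, edgeR called 0 of 9 lipolysis genes higher and 2 lower in nuclei with Ucp1, Ces1f (-1.41) and Pnpla3 (-0.30), with a list median of -0.09 against 0.01 for all genes. Of all genes, 2.21% were called higher and 4.42% lower. Of 17 other droplet proteins, 3 were called higher, Clstn3 (0.48), Acsl3 (0.40) and Lpcat3 (0.27), and 1 lower, Mettl7a1 (-0.48). Their median was 0.08.

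A second contrast took nuclei without a Ucp1 UMI and compared those with and without a UMI of Cyp2e1, a cytochrome P450 gene carried by part of the white-like adipocytes, in the 4 mPRAT, 2 lPRAT and 2 iWAT libraries. In mPRAT part of the nuclei without a Ucp1 UMI lay in Ucp1-rich clusters. Of 8423 genes, 1.42% were called higher and 1.78% lower by edgeR, and of the 7 members tested 0 were called higher and 2 lower in nuclei with Cyp2e1. These were Cidea (-1.16, adjusted p = 0.00272) and Plin5 (-0.83, adjusted p = 0.0339). Plin2 (-0.41, adjusted p = 0.0676), Cidec (0.41, adjusted p = 0.0831) and Plin4 (0.40, adjusted p = 0.108) did not pass in edgeR. Cidea passed in 8 of 8 edgeR fits that left out a library but not without thinning (-1.02, adjusted p = 0.0511). Plin5 was lost by DESeq2 (adjusted p = 0.0921) and, in edgeR, without mPRAT at 2 months, at 6 months or in cold or without cold iWAT (adjusted p up to 0.156), with ratios from -1.06 to -0.73 over the 8 libraries left out. Without iWAT at 22 °C, Plin2, Cidec and Plin4 passed in edgeR (adjusted p from 0.0343 to 0.0397), as they did with no filter on low counts. In the mPRAT libraries alone 2 of 7 members were called higher, Cidec (0.82) and Plin4 (0.84), and 4 lower, Cidea (-1.30), Plin5 (-0.93), Plin3 (-0.83) and Plin2 (-0.61), against 7.46% and 6.51% of genes. Among the lists, 2 lipolysis genes were called higher, Ces1f (0.66) and Abhd5 (0.42), and 0 of 17 other droplet proteins passed in either direction.

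Here too mPRAT stood apart for some members. The nuclei without a Ucp1 UMI were not alike in the depots. In each mPRAT library they outnumbered the Ucp1-poor nuclei, with 2858 against 1864 at 6 months, so part of them lay in Ucp1-rich clusters. In lPRAT and iWAT, Ucp1-poor clusters held 93.8% to 99.8% of adipocyte-like nuclei. The part of this mix in the ratios was not tested. The Cidec ratio was 0.81 ± 0.27 (SD, n = 4 libraries) in mPRAT and 0.01 ± 0.06 in the 4 lPRAT and iWAT libraries, and the Plin4 ratio 0.82 ± 0.22 and -0.04 ± 0.21. The difference, tested in edgeR after these values were seen, was called higher in mPRAT for 2 of 7 members and lower for 0, against 5.16% and 1.92% of genes. It was 0.81 for Cidec (adjusted p = 2.05e-05) and 0.86 for Plin4 (adjusted p = 2.56e-05) in edgeR. For Cidea it was -0.67 (adjusted p = 0.295), although the Cidea ratio was -1.42 ± 0.69 in mPRAT and -0.04 ± 0.70 in the other libraries. In lPRAT and iWAT the Cidea ratios rest on few UMIs. The libraries behind each SD differ in age and temperature, and those of lPRAT and iWAT also in depot.

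The genes whose log level over the 12 libraries was most like that of each member are given as a description. Each r is over n = 12 libraries among 6432 genes, and the libraries share depot, age and depth. Pank1 (r = 0.988), Cyth1 (0.982) and Ppargc1b (0.982) were nearest to Cidea, and Slc25a42 (0.983) and Sept9 (0.982) to Plin5. Atp5f1 (0.978) and Mtx2 (0.976) were nearest to Plin2, and Sh3bp5 (0.966) to Plin3. Adcy5 (0.966) was nearest to Cidec, Cald1 (0.928) to Plin4 and Plxna2 (0.949) to Plin1.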

How the data were processed

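Nuclei from 12 libraries were sorted with 7-AAD and sequenced with 10x 3′ v3.1 chemistry, per the labels' protocols. The deposited values are whole-number UMI counts per gene and barcode, made with Cell Ranger 7.0.0 per the file headers, on mm10 per the submitters' processing notes. The annotation and the counting of intronic reads are not given in the sources used here. Positions came from GENCODE vM21 (GRCm38), where 32158 of 32285 identifiers matched.

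Barcodes with at least 500 UMIs, 300 genes and at most 10% mitochondrial UMIs were kept, and scrublet scores (scanpy 1.11.5) removed 11338 barcodes at a rate of 0.8% per 1000 nuclei. Leiden clustering used 2000 variable genes, 30 components, 15 neighbours and resolution 1. Of 20 clusters, 1 stayed unnamed. Between libraries, ratios of CPM carry exact conditional binomial intervals, levels exact Poisson intervals and shares exact Clopper-Pearson intervals. A gene was measured in a pair with 20 or more counts. The gates were tested with edgeR 4.0.16 on summed counts of genes passing filterByExpr, threshold 0.05, in R 4.3.3, with DESeq2 1.42.0 as an alternative. The script was tested on simulated counts. The library block pairs the sums of 1 library, which come from the same nuclei suspension.

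Named genes were the members, Ucp1 and Cyp2e1, and the 2 highest and 2 lowest genes of each list with at least 100 counts. Likeness used genes of at least 20 CPM, with 10 CPM added before the log. Members and lists were chosen with earlier results of these data known. The coordinates and sequence of Cidea are not reported here.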

Additional observations from a re-analysis of the deposited data

Results flagged for a closer look

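The ratio of nuclei with over nuclei without a Ucp1 UMI differed between mPRAT and iBAT for 5 members. This was by the interaction test in edgeR, which was added after the values were seen. Ucp1-poor clusters held 22.0% to 55.3% of mPRAT adipocyte-like nuclei and 1.38% to 7.94% in iBAT, and the part of this mix was not tested. The mPRAT minus iBAT differences in log2 ratio were 0.84 for Plin2, 0.86 for Cidea, 0.81 for Plin5, -1.04 for Cidec and -0.88 for Plin4. The ratio by the Cyp2e1 UMI differed between mPRAT and the lPRAT and iWAT libraries for Cidec (0.81) and Plin4 (0.86), by a test likewise added afterwards. The nuclei without a Ucp1 UMI lay partly in Ucp1-rich clusters in mPRAT. In 15 sets of gate ratios searched for a library far from the others, 0 were found. The search pooled the depots. Where the depots lay apart, the gap between them widened the range, so a far library could be missed.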

How the results depend on the processing

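Of 55 member ratios past 2-fold between libraries, 44 stayed past it in every planned setting, and all 494 values of these ratios under the planned settings kept their sign. No paired analysis was possible because each group is 1 library; only the gates have a library block. Without the library pairing, the replicate block, edgeR called 0 genes higher and 0 lower in the Ucp1 gate (720 genes at an unadjusted p under 0.05; DESeq2 with the block called 750) and 0 and 0 in the Cyp2e1 gate (195 and 182). 

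The other counts of called genes moved as follows, higher then lower. In the Ucp1 gate they were 378 and 846 with no filter on low counts, 634 and 903 at 2000 UMIs, 1282 and 1436 without thinning, 718 and 719 in mPRAT alone, 46 and 185 in iBAT alone, and 52 to 301 and 265 to 509 when 1 library was left out. In the Cyp2e1 gate they were 300 and 434 with no filter, 656 and 572 in mPRAT alone, and 7 to 203 and 22 to 230 when 1 library was left out, and 75 (DESeq2) and 92 (2000 UMIs) genes were called lower. Plin1 in the Ucp1 gate changed sign in iBAT alone (0.0391) and without mPRAT at 2 months (0.00768), 6 months (0.00787) or cold (0.00477), with -0.0331 to 0.00787 over the 8 libraries left out. Plin3 did so in iBAT alone (-0.0743) and without cold mPRAT (-0.00221), with -0.00221 to 0.121. Neither gene passed the threshold in these fits.

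Member counts past 2-fold moved as follows. TMM scaling gave 0 in mPRAT 2 over 1 months, 3 in iBAT cold, 1 in lPRAT over iWAT and 2 in mPRAT over iBAT in cold. The mean of nuclei gave 0 in mPRAT 2 over 1 months and 2 in iWAT cold. The marker gate gave 0 in mPRAT 2 over 1 months, 0 in mPRAT 6 over 1 months, 2 in iBAT cold, 2 in iWAT cold and 0 in mPRAT over iBAT in cold. Subtracting the macrophage-like level gave 1 in mPRAT 6 over 2 months, 2 in mPRAT 6 over 1 months, 1 in iBAT 2 over 1 months, 1 in lPRAT 6 over 2 months, 2 in mPRAT cold and 2 in mPRAT over iBAT in cold, and 2 in iBAT cold. No minimum count gave 2 in mPRAT 2 over 1 months, 1 in mPRAT 6 over 2 months, 1 in iBAT 2 over 1 months and 2 in iWAT cold. The cluster sides, added after seeing the data, gave 2 (Ucp1-poor) and 0 (Ucp1-rich) in mPRAT 2 over 1 months, 1 and 1 in mPRAT 6 over 2 months, and, in Ucp1-poor clusters, 0 in iBAT 6 over 2 and 6 over 1 months and 0 in mPRAT cold. There Plin2 in iBAT 6 over 2 months was -0.0616 instead of 1.02. Between depots the same sides, poor then rich where both could be read, gave 0 and 0 in mPRAT over iBAT at 6 months, 1 and 1 at 2 months and 3 and 0 in cold, 3 and 1 in mPRAT over iWAT in cold, 4 and 0 in iBAT over iWAT in cold, and, in poor clusters, 3 in mPRAT over lPRAT and 2 in iBAT over iWAT at 6 months. Ratios past 2-fold turned sign there for Cidea in mPRAT over iBAT at 6 months (0.0025, rich), in mPRAT over iWAT in cold (-0.35, rich) and in iBAT over iWAT in cold (-0.28, rich). In iBAT over iWAT, Plin4 turned at 6 months (0.047, poor) and in cold (0.16, poor; 0.91, rich), and in cold rich clusters Cidec (0.73) and Cideb (-0.16).

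The Cidea share moved to 34.3%, 44.0% and 53.4% (mPRAT 2 and 6 months, cold), 63.2%, 60.7%, 78.1% and 73.6% (iBAT), and 1.15% and 14.1% (iWAT) under the marker gate. It moved to 43.9% and 31.6% (mPRAT 1 and 2 months) and 55.0% (iBAT 2 months) with at least 1000 genes. Subtraction gave 42.1% (mPRAT 1 month), 68.1%, 51.9%, 76.5% and 72.9% (iBAT) and 0.243% (lPRAT 2 months). The level subtracted in iBAT at 2 months came from 41 macrophage-like nuclei with a median of 924 UMIs. Without a mitochondrial limit cold mPRAT was at 49.3%, and with doublets kept iBAT at 6 months was at 77.6%. Without thinning, median shares of nuclei were 89.1% for Plin1, 45.4% for Plin2, 8.00% for Plin3, 61.7% for Plin4, 13.3% for Plin5, 59.6% for Cidea and 77.2% for Cidec. The cause of these shifts was not tested. For Plin2 the subtraction left 0 in iWAT and lPRAT, since the macrophage-like level was above the adipocyte-like one (268 against 143 CPM in iWAT at 22 °C). The cold iWAT, lPRAT age and lPRAT over iWAT pairs then had no value. With 3 counts in place of the 0, the log2 ratios became 11.3 (mPRAT over iWAT), 11.9 (iBAT over iWAT) and 10.1 (mPRAT over lPRAT) at 6 months. They became 6.81 (mPRAT over lPRAT) at 2 months, and 11.5 (mPRAT over iWAT) and 12.1 (iBAT over iWAT) in cold, far above the reported ones. These values follow from subtracting a Plin2 level not read as background, and are not lower limits of the differences. Plin3, with macrophage-like levels near its own, moved as widely, to 8.63 in iBAT over iWAT at 6 months and to -5.55 in mPRAT 2 over 1 months. With 1 library per group, no difference between groups can be told from a difference between libraries. Cideb rests on 332 UMIs over the adipocyte-like nuclei of all 12 libraries, and Cidea in lPRAT on 23 and 55 UMIs.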

Other observations

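Plin2 was also read outside adipocytes. In macrophage-like nuclei it was at 1174 CPM in lPRAT at 6 months, from 4212 UMIs in 1382 nuclei, which is 1024% of the 115 CPM of adipocyte-like nuclei of the same library. In lPRAT at 2 months it was at 149 CPM, and in the other libraries with at least 50 macrophage-like nuclei it ran from 117 to 388 CPM. After thinning to 1000 UMIs, 56.6% of those macrophage-like nuclei held a Plin2 UMI (interval 53.6% to 59.5%; 68.5% unthinned, median depth 2011.5 UMIs), against 10.3% of adipocyte-like nuclei (9.0% to 11.8%; 42.9% unthinned, median depth 6543 UMIs). In ASPC-like nuclei the median Plin2 level over libraries was 126 CPM.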
